A study of Mus musculus with 16 samples.

Results

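The endoplasmic reticulum (ER) chaperones and unfolded protein response (UPR) genes examined here are 37 mouse genes taken by symbol from a table of 53372 gene identifiers. All 37 were found in the table and all 37 passed the filter on low counts. They were grouped by role into 11 chaperones, 10 disulfide isomerases, oxidases and prolyl isomerases, 9 genes of ER-associated degradation, 3 genes of the translocon and 4 genes of the UPR sensors and their effector. RNA came from livers of FVB/NCrl mice that were untreated (CTRL) or had received diphenyl phosphate (DPhP), an aryl phosphate ester known as a metabolite of organophosphate flame retardants, at 0.1 mg/L (C1), 1 mg/L (C2) or 10 mg/L (C3). No source used here gives the route or the duration of exposure, or the age of the animals. Each group is 1 pool of livers, from which 4 libraries were made as analytical replicates. A p-value here measures spread between libraries of a pool, n = 4 counts libraries and not animals, and pool and concentration cannot be told apart. Values are CPM (library counts scaled to a common total) after TMM scaling. A gene was called when its edgeR quasi-likelihood test gave a Benjamini-Hochberg adjusted p under 0.05 over all genes tested.

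The ER folds proteins made for secretion, of which hepatocytes make a great deal. The chaperone Hspa5 (BiP) holds unfolded chains and also binds the sensors Ern1 (IRE1), Eif2ak3 (PERK) and Atf6. When unfolded protein builds up, Ern1 splices the Xbp1 mRNA, Eif2ak3 slows translation and favours that of Atf4, and Atf6 is cut to free a transcription factor. Xbp1 and Atf6 act on ER stress response elements (ERSE) in promoters of chaperone and degradation genes. Gene counts do not separate spliced from unspliced Xbp1, and they do not measure the cutting of Atf6 or the phosphorylation of the kinases.

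The ERSE was first described in promoters of ER chaperone genes, Hspa5 among them, and it was more frequent in windows of the 37 genes than in promoters at large. RefSeq promoter windows on GRCm38.p6, from 250 bases before to 50 bases after a gene's start, matched 32 of the 37 genes. ERSE, spelled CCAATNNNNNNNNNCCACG and searched on both strands, was found in 10 of these 32 genes (31.2%) and in 37 of all 27025 genes with a window (0.137%). These 10 were Calr, Canx, Creld2, Derl3, Dnajc3, Ero1lb, Hsp90b1, Hspa5, Pdia6 and Syvn1. ERSE-II, spelled ATTGGNCCACG, was found in Dnajb11 and Herpud1 and in 12 of all genes (0.0444%). The short motif CCACG, which lies inside both elements, was found in 28 of the 32 genes, against 35.5% of all genes, and TGACG was found in 12 of the 32, against 23.0% of all genes. A match is a description of the letters in the window and not a measured binding site. Shown here are the elements of Creld2, Derl3 and Herpud1, which were called between DPhP and CTRL livers. Also shown are those of Calr and Canx, which hold ERSE as Creld2 and Derl3 do and were not called with all libraries. Each is read 5′ to 3′ on the gene's own strand, with the fixed letters of the element in capitals.
Creld2 (chr15:88819500-88819558, + strand): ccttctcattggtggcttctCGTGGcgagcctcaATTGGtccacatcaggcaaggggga
Derl3 (chr10:75893222-75893280, + strand): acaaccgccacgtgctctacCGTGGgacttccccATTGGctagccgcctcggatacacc
Herpud1 (chr8:94386357-94386407, + strand): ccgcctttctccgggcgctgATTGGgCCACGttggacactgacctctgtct
Calr (chr8:84847055-84847113, - strand): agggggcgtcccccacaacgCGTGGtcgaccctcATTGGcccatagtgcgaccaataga
Canx (chr11:50325780-50325838, - strand): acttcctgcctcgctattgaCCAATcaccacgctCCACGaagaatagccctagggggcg
The first, the second and the fourth of these carry ERSE in the reverse orientation, the third carries ERSE-II and the last carries ERSE in the forward orientation.

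The 16 libraries held 14434761 to 45109243 counts, and 17810 genes were tested. Libraries C2-3, C2-4 and C3-4 stood apart. Their mean log2(CPM + 0.5) over 4 nuclear-retained RNAs (Malat1, Neat1, Xist and Kcnq1ot1) was 9.97 to 10.15, against 8.45 to 9.39 in the other 13 libraries. The mean log2(CPM + 0.5) of the 37 genes was 5.97 to 6.13 in these 3 libraries. It was 6.34 to 6.46 in CTRL, 6.05 to 6.15 in C1, 6.46 to 6.52 in C2-1 and C2-2, and 6.36 to 6.38 in C3-1, C3-2 and C3-3. Inside C2, 27 of the 37 genes were lower in both C2-3 and C2-4 than in C2-1 and C2-2, and 9 were higher in both. Inside C3, 26 of the 37 were lowest in C3-4. The shares of all genes with such splits were not computed, so the splits are not shown to be particular to the 37 genes. The mean log2(CPM + 0.5) of the 115 other ER genes described below was also lower in C2-3, C2-4 and C3-4. It was 4.88 to 4.97 there, against 5.08 to 5.29 in the other 13 libraries. Comparisons are therefore given with all 16 libraries and without these 3, which leaves C2-1 and C2-2 alone in C2. The hepatocyte markers, 10 genes with none at 0, summed to between 66271 and 73865 CPM in C1, 30621 and 74009 CPM in C2 and 37452 and 64839 CPM in C3, against 69602 to 84024 CPM in CTRL. In such bulk RNA, fewer cells of a type and less RNA per cell cannot be told apart.

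**Figure D1:**
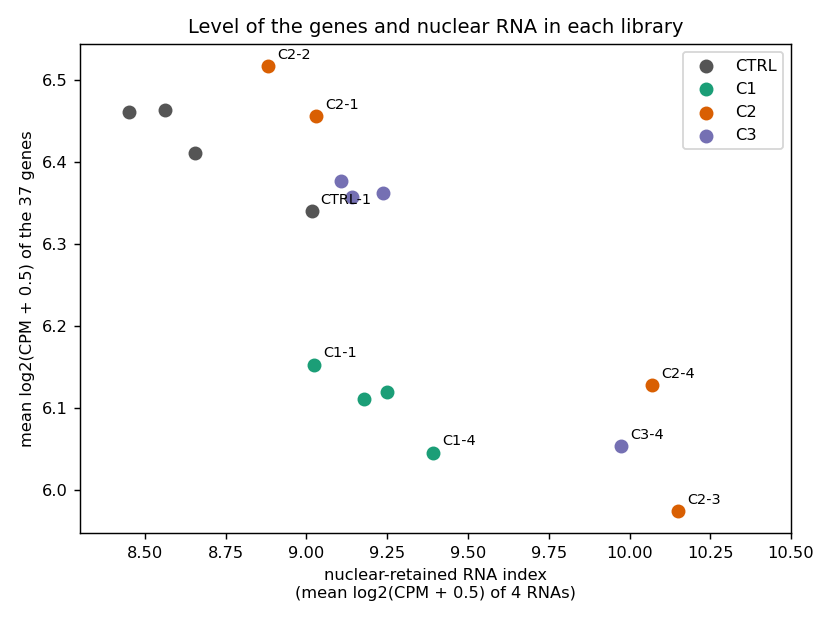
Each point is 1 library, with the mean log2(CPM + 0.5) of 4 nuclear-retained RNAs on the x axis and that of the 37 ER genes on the y axis, coloured by group. C2-3, C2-4 and C3-4 lie at the right, at 9.97 or more on the index, and the 4 C1 libraries lie low, between 6.05 and 6.15, below the 6.34 to 6.52 of all CTRL libraries, C2-1, C2-2 and C3-1 to C3-3.

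Per length of exon, the most abundant of the genes in CTRL livers were P4hb (228 ± 23.5 CPM per kb of exon, SD, n = 4), Hspa5 (206 ± 29.3), Calr (191 ± 18.2), Hsp90b1 (165 ± 12.8) and Herpud1 (143 ± 8.29). In this order, each gene overlapped its neighbour in the range over the 4 libraries. The same 5 genes led in C1, C2 and C3, with P4hb first and Herpud1 last of the 5 in each of these groups. The least abundant in CTRL were Derl3, at 1.31 ± 0.242 CPM per kb, and Fkbp11, at 0.610 ± 0.244. Among the sensors, Ern1 stood at 5.95 ± 0.432, Atf6 at 4.84 ± 0.297 and Eif2ak3 at 2.63 ± 0.215 CPM per kb in CTRL, below their effector Xbp1 at 59.4 ± 3.01.

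DPhP at the lowest concentration went with lower RNA of these genes. With all libraries, 7 of the 37 fell in C1 and none rose, whereas 1.39% of all genes tested were called lower and 0.938% higher. The 7 were Herpud1, Creld2, Hyou1, Dnajb11, Xbp1, Derl3 and Sdf2l1. The median log2 fold change of the 37 genes was -0.26 (34 below 0 and 3 above), beside 0.01 for all genes tested. In 21 of the 37 genes every C1 library lay below every CTRL library, which held for 10.1% of all genes. In a model of the C1 and CTRL libraries alone, 22 of the 37 fell and none rose, against 8.1% of all genes called lower and 7.1% called higher. Without C2-3, C2-4 and C3-4, 24 of the 37 fell in C1 and none rose, against 8.04% called lower and 6.52% called higher, with a median of -0.27. The 7 calls were among the 24. With all libraries, Herpud1 and Creld2 were called whichever single library was left out. Hyou1 was not called without C1-2 or C1-4 (highest adjusted p 0.0563), and Dnajb11 was not called without any 1 of the 4 C1 libraries or CTRL-2, CTRL-3 or CTRL-4 (0.0998). Xbp1 (0.133), Derl3 (0.153) and Sdf2l1 (0.183) lost their calls without single libraries of CTRL or C1 or without C3-3. The count of 7 was 2 to 4 without CTRL-2, CTRL-3, CTRL-4, any of the C1 libraries or C3-3. The share of all genes called, in both directions, also fell in these fits, from 2.32% to between 0.86% and 1.85%. The share of the 37 genes went from 18.9% to between 5.41% and 10.8%. Beside this, the index of nuclear-retained RNA was 9.02 to 9.39 in C1 and 8.45 to 9.02 in CTRL, and the sinusoidal endothelial markers summed to 209 to 228 CPM in C1 and 176 to 185 CPM in CTRL; the part of either in the result was not tested. C3-1 to C3-3, with an index of 9.11 to 9.24, had member levels of 6.36 to 6.38 on the log2 scale, above the 6.05 to 6.15 of C1. These are different pools, and the difference in mean level was not tested. Gene by gene, C3 against C1 without C2-3, C2-4 and C3-4 called 12 of the 37 higher and none lower. Of all genes, 1.68% were called higher and 1.73% lower there. The part of the index in this was not tested.

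The higher concentrations gave fewer calls, and in C2 the direction depended on the libraries that stood apart. In C2, 1 of the 37 genes rose (Derl3) and 2 fell (Herpud1 and Atf6), against 8.03% of all genes called higher and 10.2% called lower. Both shares of the 37 genes are below that background. Without C2-3 and C2-4, and without C3-4, 9 rose and 5 fell, against 12.7% and 15.3% of all genes. With all others kept, 6 genes (16.2%) were called without C2-1 and 7 (18.9%) without C2-2, where 19.9% and 24.8% of all genes were called. The median of the 37 genes in C2 was -0.18 with all libraries and 0.13 without those 3. In C3 none of the 37 was called by edgeR, and 4 had an unadjusted p under 0.05. Of all genes, edgeR called 0.522% higher and 0.876% lower in C3. DESeq2 also called 0 of the 37, and it called 4.31% of all genes. Without the 3 libraries, 3 of the 37 fell in C3 (Calr, Pdia4 and Herpud1) and none rose, against 3.68% and 2.41% of all genes. Every C2 library lay below every CTRL library in 4 of the 37 genes and every C3 library did so in 5, against 12.6% and 7.25% of all genes. The 3 comparisons share the CTRL libraries.

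**Figure D2:**
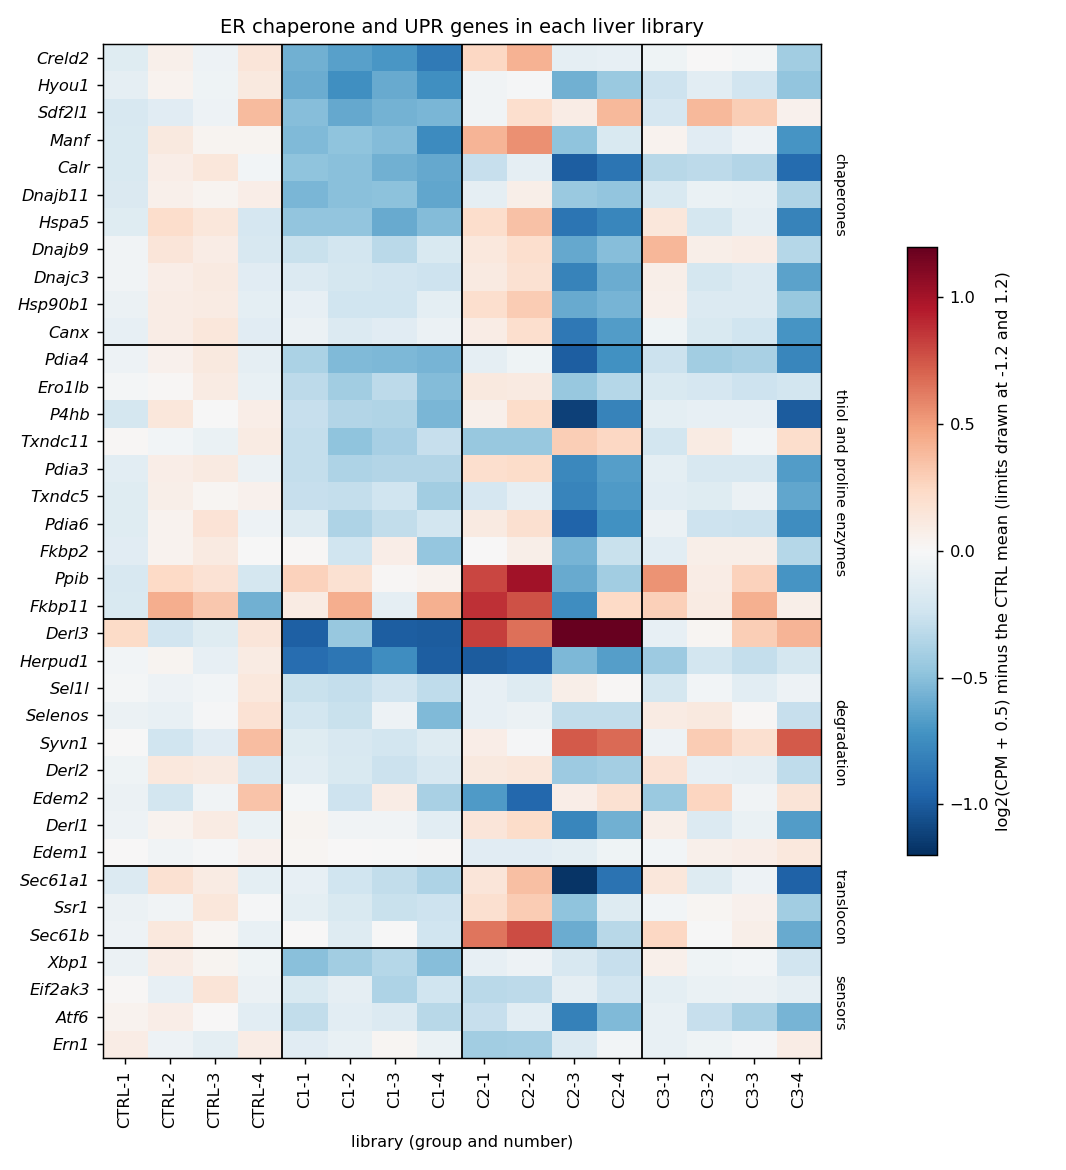
Rows are the 37 genes by role and columns the 16 libraries by group; colour gives log2(CPM + 0.5) minus the CTRL mean of the gene, red for higher and blue for lower. The C1 columns are mostly blue, and in C2 the libraries C2-3 and C2-4 differ from C2-1 and C2-2 in nearly every row.

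**Figure D3:**
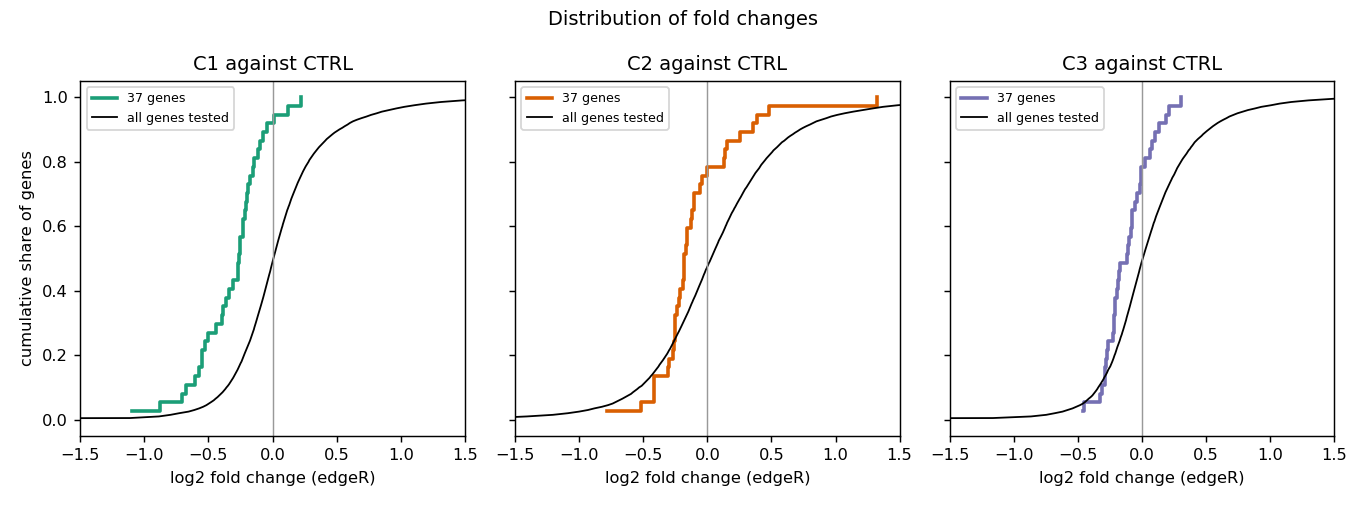
Cumulative share of genes against the log2 fold change, in 1 panel per concentration against CTRL, for the 37 genes (coloured steps) and all 17810 genes tested (black line). In C1 the steps lie left of the black line over the middle of the range, with a median of -0.26 beside 0.01.

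The chaperones gave most of the calls in C1, 4 of 11. Hspa5, the main Hsp70-type chaperone of the ER, on GRCm38 chr2:34771970-34777547, had 782, 1004, 952 and 753 CPM in the 4 CTRL libraries, 623, 625, 571 and 603 in the C1 libraries, 1004, 1105, 472 and 502 in the C2 libraries, and 949, 750.0, 803 and 497 in the C3 libraries. All C1 libraries lay below all CTRL libraries, while C2 split into 2 libraries at the CTRL level or above and 2 below. The log2 fold change of Hspa5 was -0.53 ± 0.25 (SE) in C1 with an edgeR adjusted p of 0.307, and -0.18 ± 0.25 in C2 and -0.22 ± 0.25 in C3. Without C2-3, C2-4 and C3-4, Hspa5 was called lower in C1, at -0.54 ± 0.09 (adjusted p = 0.000274), and was not called in C2, at 0.29 ± 0.11 (adjusted p = 0.0574).

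Creld2, a secreted ER stress-inducible protein with disulfide isomerase activity, on GRCm38 chr15:88819646-88826683, had 25.4, 29.4, 27.0 and 31.3 CPM in CTRL libraries, 18.8, 17.7, 17.2 and 15.4 in C1 libraries, 33.5, 37.8, 26.2 and 26.3 in C2 libraries, and 27.2, 28.3, 27.7 and 21.0 in C3 libraries. The C1 libraries were the 4 lowest of all 16. Creld2 fell in C1 by 0.71 ± 0.13 on the log2 scale (edgeR adjusted p = 0.00787) and was not called in C2 or C3 with all libraries. It rose in C2 once the 3 libraries were left out, by 0.35 ± 0.10 (adjusted p = 0.00853). Hyou1, a large ER chaperone that acts as nucleotide exchange factor for Hspa5, on GRCm38 chr9:44379490-44392369, had 135, 150.0, 140.0 and 157 CPM in CTRL libraries, 95.7, 86.9, 95.2 and 87.2 in C1 libraries, 141, 144, 97.4 and 106 in C2 libraries, and 122, 133, 124 and 105 in C3 libraries. C1 was again below CTRL in every library, and the lowest C2 and C3 values came from the 3 libraries that stood apart. Hyou1 fell in C1 by 0.67 ± 0.13 (adjusted p = 0.0105).

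Sdf2l1, which works with the Hspa5 co-chaperones, on GRCm38 chr16:17130138-17132383, had 10.2, 10.7, 11.3 and 15.5 CPM in CTRL libraries, 8.14, 7.54, 7.79 and 7.87 in C1 libraries, 11.4, 13.6, 12.6 and 15.6 in C2 libraries, and 10.1, 15.5, 14.5 and 12.2 in C3 libraries. C1 was lowest and narrow, and C2 and C3 overlapped CTRL. Sdf2l1 fell in C1 by 0.60 ± 0.15 (adjusted p = 0.0471). Dnajb11 (ERdj3), a J-domain co-chaperone of Hspa5, on GRCm38 chr16:22857845-22879634, had 52.7, 62.1, 61.1 and 63.2 CPM in CTRL libraries, 40.7, 42.0, 42.3 and 38.4 in C1 libraries, 55.2, 62.5, 43.8 and 42.8 in C2 libraries, and 52.6, 56.5, 55.9 and 46.3 in C3 libraries. All C1 libraries lay below all CTRL libraries and C2 was split as for Hspa5. Dnajb11 fell in C1 by 0.55 ± 0.12 (adjusted p = 0.0213). Dnajb11 shares its locus with a predicted gene on the opposite strand, and no source used here gives the strand setting of the counts.

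Of the chaperones not called in C1, the ER stress-induced factor Manf was at -0.58 ± 0.20 and the lectin chaperone Calr at -0.55 ± 0.19. Dnajb9 (-0.25 ± 0.18), Dnajc3 (-0.22 ± 0.19), Hsp90b1 (-0.18 ± 0.19) and Canx (-0.12 ± 0.20) were nearer 0. The membrane-bound lectin chaperone Canx thus differed less from CTRL than its soluble relative Calr, a contrast that was not tested. Leaving out the 3 libraries, 9 of the 11 chaperones fell in C1, all but Hsp90b1 and Canx. In C2 without them, Manf (0.49 ± 0.09, adjusted p = 0.000313), Creld2 and Hsp90b1 (0.27 ± 0.10, adjusted p = 0.0382) rose, and Hyou1, Dnajb11 and Sdf2l1 stood at -0.02, -0.01 and 0.08.

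**Figure D4:**
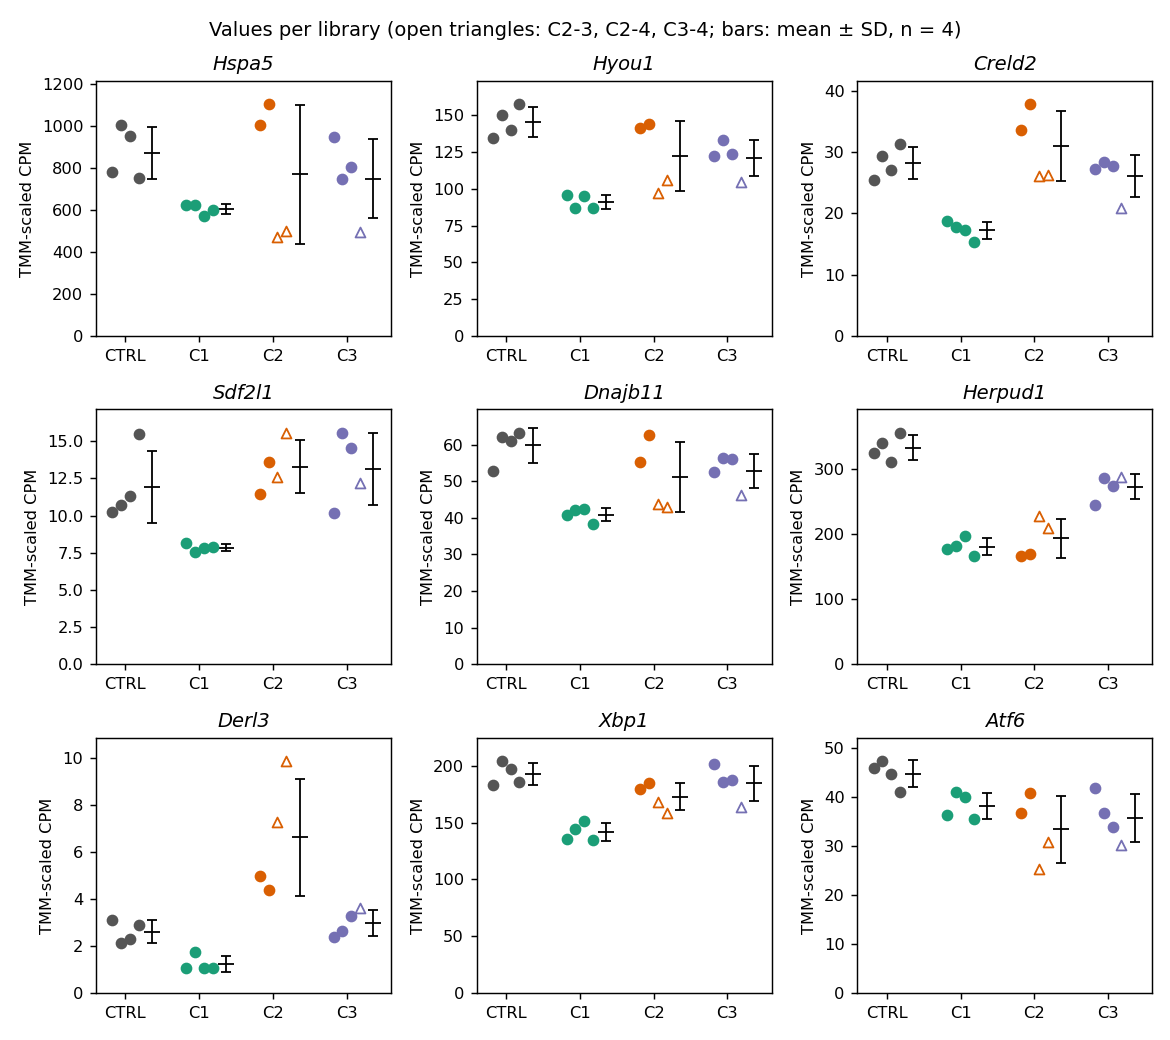
TMM-scaled CPM of 9 genes in each library, by group in order of concentration, with the mean ± SD (n = 4) as a bar beside the points; open triangles mark C2-3, C2-4 and C3-4. C1 lies below CTRL without overlap in all panels but Atf6, where C1-2 reaches 41.0 CPM and CTRL-4 lies at 40.9.

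No disulfide isomerase, oxidase or prolyl isomerase was called in any comparison with all 16 libraries. P4hb, protein disulfide isomerase itself, had 560.0, 714, 648 and 688 CPM in CTRL libraries, 536, 509.9, 504 and 444 in C1 libraries, 676, 758, 299 and 372 in C2 libraries, and 599.6, 607, 606 and 326 in C3 libraries. The 3 libraries that stood apart held the 3 lowest values. Its log2 fold change was -0.39 ± 0.25 in C1, -0.31 ± 0.25 in C2 and -0.29 ± 0.25 in C3. Pdia3 (ERp57), the isomerase that works with Calr and Canx on glycoproteins, had 236, 272, 279 and 246 CPM in CTRL libraries, 212, 199, 202 and 202 in C1 libraries, 297, 301, 150.2 and 162 in C2 libraries, and 238, 226, 225 and 161 in C3 libraries. C1 lay below CTRL in every library, and C2-1 and C2-2 lay above CTRL. Pdia3 was at -0.34 ± 0.20 in C1, -0.18 ± 0.20 in C2 and -0.28 ± 0.20 in C3.

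Among the other 8, log2 fold changes in C1 ran from -0.51 ± 0.18 for the isomerase Pdia4 to 0.22 ± 0.36 for the prolyl isomerase Fkbp11. Without the 3 libraries, 7 of the 10 fell in C1. These were P4hb, Pdia3, Pdia4, Pdia6, Txndc5 and Txndc11 of the thioredoxin-like enzymes and the oxidase Ero1lb, which reoxidises them. The prolyl isomerases Fkbp2 (-0.16 ± 0.10), Ppib (0.11 ± 0.11) and Fkbp11 (0.21 ± 0.24) were the 3 that were not called. In C2 without the 3 libraries, Ppib (0.91 ± 0.13, adjusted p = 3.28e-05), Fkbp11 (0.93 ± 0.26, adjusted p = 0.00848) and Pdia3 (0.23 ± 0.08, adjusted p = 0.0489) rose, and Txndc11 fell (-0.45 ± 0.10, adjusted p = 0.00125).

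With all 16 libraries, the degradation gene Derl3 had the largest fold change of the 37 genes in C1 and in C2. Derl3, a derlin of the channel that moves misfolded proteins out of the ER, on GRCm38 chr10:75893413-75895941, had 3.12, 2.12, 2.28 and 2.91 CPM in CTRL libraries, 1.06, 1.74, 1.05 and 1.04 in C1 libraries, 4.98, 4.38, 7.28 and 9.87 in C2 libraries, and 2.38, 2.62, 3.27 and 3.59 in C3 libraries. C1 lay wholly below CTRL, C2 lay wholly above it and C3 overlapped it, with 14 to 32 counts per library in C1 and 58 to 78 in CTRL. Derl3 fell in C1 by 1.09 ± 0.28 on the log2 scale (edgeR adjusted p = 0.0450) and rose in C2 by 1.32 ± 0.24 (adjusted p = 0.00162). The rise was 0.87 ± 0.20 without the 3 libraries (adjusted p = 0.00205), which held the 2 highest values. Its relatives Derl1 and Derl2 were at -0.04 ± 0.19 and -0.20 ± 0.14 in C1 and at -0.19 ± 0.19 and -0.13 ± 0.14 in C2.

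Derl3 is also known from plasma cells, and markers of B and plasma cells moved between the groups. Among those tested, Jchain and Igkc rose in C1; in C2 Cd79a and Ms4a1 rose, and Jchain and Sdc1 fell. Jchain averaged 7.91 ± 2.41 CPM in C1 and 1.92 ± 0.354 in C2, against 3.48 ± 1.12 CPM in CTRL. Igkc averaged 17.6 ± 3.13 CPM in C1 and 7.29 ± 1.44 in C2, against 8.41 ± 2.21 CPM in CTRL. Cd79a averaged 1.30 ± 0.146 CPM in C1 and 1.89 ± 0.288 in C2, against 0.922 ± 0.344 CPM in CTRL. The plasma cell gene Mzb1 averaged 0.272 ± 0.0912 CPM in C1 and 0.279 ± 0.0419 in C2, against 0.165 ± 0.0697 CPM in CTRL, and Tnfrsf17 was at 0 in every CTRL and C1 library. The summed level of the list of 12 was 139 to 180.3 CPM in C1, 103 to 115 in C2 and 117 to 186 in C3, against 183 to 218 CPM in CTRL, and most of it was Sdc1, which hepatocytes also express. Without Sdc1 the sum of the other 11 was 31.3 to 38.5 CPM in C1, 22.8 to 27.6 in C2 and 17.0 to 18.5 in C3, against 17.3 to 27.8 CPM in CTRL, so that C1 was higher than CTRL and C2 overlapped it. The sinusoidal endothelial markers summed to 250.1 to 309 CPM in C2, where 8 of 10 rose, beside 8.03% of all genes. They summed to 209 to 228 CPM in C1 and to 192 to 240.0 CPM in C3, against 176 to 185 CPM in CTRL. None of the 10 was called in C1 or C3, though the sums there lay above those of CTRL. The part of these cells in the Derl3 values was not tested.

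Herpud1, a membrane protein that gathers the Syvn1 ubiquitin ligase complex, on GRCm38 chr8:94386438-94395377, had 325, 341, 312 and 356 CPM in CTRL libraries, 177, 182, 198 and 167 in C1 libraries, 167, 169.9, 229 and 209.7 in C2 libraries, and 246, 286, 274 and 288 in C3 libraries. Every DPhP library lay below every CTRL library, with C3 between CTRL and the other 2 groups. Herpud1 fell in C1 by 0.88 ± 0.12 (adjusted p = 0.000782) and in C2 by 0.78 ± 0.12 (adjusted p = 0.000496), and was at -0.29 ± 0.12 in C3 (adjusted p = 0.265). It fell in all 3 groups without the 3 libraries, at -0.89 ± 0.07 in C1, -0.97 ± 0.09 in C2 and -0.32 ± 0.08 in C3 (adjusted p = 0.0158 in C3). In C2 its values were lower in the 2 libraries that did not stand apart, the reverse of most of the 37 genes. A predicted gene overlaps Herpud1 on the opposite strand, so antisense reads cannot be told apart.

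The other parts of the same machinery moved less. The ligase Syvn1 (HRD1) was at -0.20 ± 0.19 in C1, 0.39 ± 0.19 in C2 and 0.31 ± 0.19 in C3. Its partner Sel1l was at -0.27 ± 0.10, -0.04 ± 0.10 and -0.11 ± 0.10 in C1, C2 and C3; neither was called. The mannosidase-like factors Edem1 and Edem2, which mark misfolded glycoproteins, were at 0.01 ± 0.09 and -0.15 ± 0.22 in C1. Selenos, a selenoprotein of the derlin complex, was at -0.27 ± 0.12 in C1. Sel1l (-0.28 ± 0.07) and Selenos (-0.28 ± 0.09) also fell in C1 when the 3 libraries were left out, and Edem2 fell in C2 (-0.83 ± 0.19, adjusted p = 0.00381).

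The translocon genes were not called with all libraries. Sec61a1, the pore through which new chains enter the ER, had 144, 183, 173 and 149 CPM in CTRL libraries, 150.5, 137, 131 and 125 in C1 libraries, 179, 208, 71.1 and 87.0 in C2 libraries, and 178, 145, 155 and 82.0 in C3 libraries. C1 overlapped CTRL, and the 3 libraries that stood apart were the lowest. Ssr1, a subunit of the translocon-associated complex, had 79.2, 80.7, 91.3 and 82.1 CPM in CTRL libraries, 76.5, 73.2, 69.2 and 70.1 in C1 libraries, 95.4, 103, 59.4 and 74.6 in C2 libraries, and 81.4, 84.7, 86.1 and 62.2 in C3 libraries. C1 lay below CTRL without overlap. Log2 fold changes in C1 were -0.26 ± 0.28 for Sec61a1, -0.21 ± 0.15 for Ssr1 and -0.10 ± 0.24 for Sec61b, the small subunit of the pore. Sec61a1 and Ssr1 fell in C1 without the 3 libraries, and in C2 without them Sec61b (0.73 ± 0.09, adjusted p = 3.32e-06) and Ssr1 (0.27 ± 0.08, adjusted p = 0.0162) rose.

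The effector Xbp1 fell in C1. Xbp1, on GRCm38 chr11:5520659-5525893, had 184, 204, 198 and 186 CPM in CTRL libraries, 136, 144, 152 and 135 in C1 libraries, 180.0, 185, 168 and 159 in C2 libraries, and 202, 186, 188 and 164 in C3 libraries. The C1 libraries were the 4 lowest of all 16. The fall was 0.44 ± 0.11 on the log2 scale (adjusted p = 0.0310), and the log2 fold change was -0.16 ± 0.10 in C2 and -0.06 ± 0.10 in C3. Atf6, on GRCm38 chr1:170704674-170867771, had 45.9, 47.2, 44.7 and 40.9 CPM in CTRL libraries, 36.3, 41.0, 39.9 and 35.4 in C1 libraries, 36.7, 40.7, 25.2 and 30.8 in C2 libraries, and 41.8, 36.7, 33.9 and 30.1 in C3 libraries. The C2 libraries lay below CTRL, lowest in C2-3 and C2-4. Atf6 fell in C2 by 0.42 ± 0.13 (adjusted p = 0.0385), a call that was lost with any of 11 of the 16 libraries left out (highest adjusted p 0.136). It was not called in C2 without the 3 libraries, at -0.19 ± 0.09 (adjusted p = 0.136), and fell in C1 by 0.24 ± 0.08 (adjusted p = 0.0400).

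The stress kinases were not called with all libraries. Ern1 was at -0.07 ± 0.10 in C1, -0.25 ± 0.10 in C2 and -0.02 ± 0.10 in C3. Eif2ak3 was at -0.23 ± 0.10, -0.26 ± 0.10 and -0.10 ± 0.10 in C1, C2 and C3. Both fell in C2 without the 3 libraries, Ern1 by 0.41 ± 0.08 (adjusted p = 0.000732) and Eif2ak3 by 0.32 ± 0.10 (adjusted p = 0.0219), and neither was called in C1. C2-1 and C2-2, in which Ern1, Eif2ak3, Edem2, Txndc11 and Herpud1 were called lower, are the libraries in which Manf, Ppib, Sec61b and Fkbp11 were called higher.

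**Figure D5:**
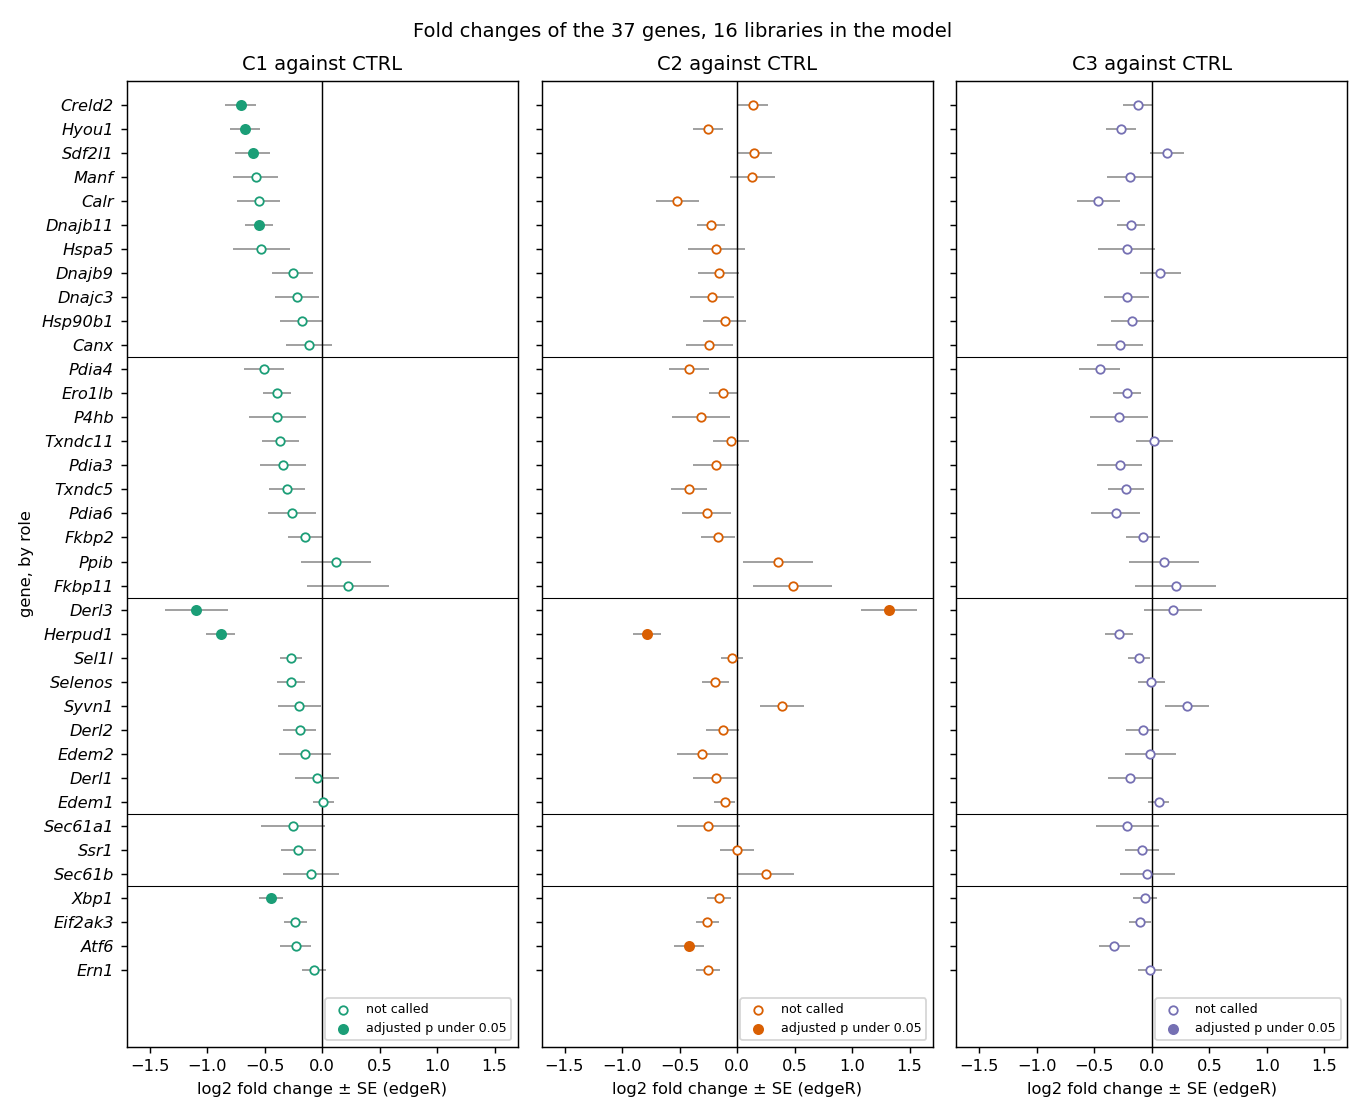
Log2 fold change ± SE (edgeR, 16 libraries) of each of the 37 genes, by role from top to bottom, in C1, C2 and C3 against CTRL; filled points were called at an adjusted p under 0.05. In C1, 34 of 37 points lie left of 0 and 7 are filled, in C2 3 are filled and in C3 none.

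The genes with an element in their promoter were spread over this range. Of the 12 genes with ERSE or ERSE-II, 4 were called lower in C1 (Creld2, Derl3, Dnajb11 and Herpud1), with log2 fold changes over the 12 from -1.09 to -0.12 and a median of -0.46. Of the 20 genes with a window and neither element, 2 were called (Sdf2l1 and Xbp1), with log2 fold changes from -0.60 to 0.22 and a median of -0.24. The difference between these groups was not tested. Canx and Calr, both with ERSE shown above, were at -0.12 and -0.55 in C1.

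Between the treated groups, C1 was the lower one. In C2 against C1, 3 genes were higher and none lower, where 0.477% of all genes were called higher and 1.58% lower. These were Derl3 (2.42 ± 0.27), Creld2 (0.85 ± 0.13) and Sdf2l1 (0.76 ± 0.15). In C3 against C1, 4 were higher and none lower, against 0.354% and 0.517% of all genes. They were Derl3 (1.28 ± 0.28), Sdf2l1 (0.74 ± 0.15), Herpud1 (0.60 ± 0.12) and Creld2 (0.59 ± 0.13), with edgeR adjusted p-values between 0.0244 and 0.0412. The 4 calls in C3 against C1 became 0 without C1-1, C1-4 or C3-3. There 0.448%, 0.579% and 0.606% of all genes were called, against 0.87% with all libraries. In C3 against C2, Derl3 alone was called, lower by a log2 fold change of -1.14 ± 0.24, where 1.17% of all genes were called higher and 0.27% lower. Without C2-4, C3-1, C3-2 or C3-3 that count was 0, where 0.976%, 0.984%, 0.378% and 0.39% of all genes were called.

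Without the 3 libraries, C2 against C1 gave 24 genes higher and 2 lower, against 9.3% and 9.43% of all genes. The 2 lower were Edem2 (-0.67) and Ern1 (-0.33), and all 11 chaperones and all 3 translocon genes were among the higher. C3 against C1 gave 12 higher and none lower, against 1.68% and 1.73% of all genes. C3 against C2 gave 4 higher and 13 lower, against 7.84% and 6.49% of all genes. The 4 higher were Edem2 (0.75), Herpud1 (0.65), Txndc11 (0.39) and Ern1 (0.35), and the largest fall was that of Derl3 (-0.80). The levels did not follow the order of concentrations. Without the 3 libraries, all 11 chaperones were called higher in C2 than in C1 and 7 of them higher in C3 than in C1, whereas Herpud1 was called higher in C3 than in C1 and in C2.

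Of 115 further genes for UPR signalling, folding, degradation, translocation and export, 4 fell and none rose in C1, with a median log2 fold change of -0.13 beside 0.01 for all genes. Of all genes, 1.39% fell and 0.938% rose in C1. In C2, 10 of the 115 fell and 6 rose, both below the 10.2% and 8.03% of all genes. In C3 1 fell (Sil1) and 1 rose (Atf4), where 0.876% and 0.522% of all genes did so. Without the 3 libraries, 33 of the 115 fell and 4 rose in C1, against 8.04% and 6.52% of all genes. In C2 without them, 17 fell and 27 rose, against 15.3% and 12.7% of all genes. In C3 without them, 4 fell and 2 rose, against 3.68% and 2.41%. By list, the calls in C1 were 2 of 17 UPR genes and 2 of 28 folding genes, and none of 22 degradation, 27 translocation and 21 export genes.

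In the UPR list, Chac1, a glutathione-degrading enzyme induced through Atf4 and Ddit3, averaged 0.938 ± 0.145 CPM in C1 and 0.499 ± 0.314 in C2, against 2.72 ± 0.528 CPM in CTRL (log2 fold changes -1.51 ± 0.30 and -2.60 ± 0.33, both called). Tmbim6 (BAX inhibitor 1), which dampens Ern1 signalling, averaged 702 ± 77.4 CPM in C1 and 524 ± 24.8 in C2, against 1114 ± 134 CPM in CTRL, and fell in both (-0.67 ± 0.15 and -1.09 ± 0.16). Atf4, the transcription factor of the Eif2ak3 branch, rose in C2 by 0.37 ± 0.09 and in C3 by 0.52 ± 0.09. Its values were 107 ± 4.61 CPM in C2 and 118 ± 4.21 in C3, against 82.3 ± 4.25 CPM in CTRL. Atf4 RNA thus moved opposite to that of Chac1 in C2. In C1, neither Atf4 nor Ddit3 was called with all libraries. By TMM-scaled CPM, both lay higher in every C1 library than in every CTRL library. The share of all genes with such a split was not computed, so it is not shown to be particular to these genes. Without the 3 libraries, 2 of the 17 UPR genes rose in C1 and 4 fell, against 6.52% and 8.04% of all genes.

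Of the folding list, the glucosidase II subunit Prkcsh (-0.79 ± 0.19) and the sulfhydryl oxidase Qsox1 (-0.69 ± 0.14) fell in C2 and the prolyl isomerase Fkbp7 rose (0.80 ± 0.26). Sil1, an exchange factor of Hspa5 named after its values were seen, fell in all 3 groups, by 0.57 ± 0.14 in C1, 0.67 ± 0.14 in C2 and 0.59 ± 0.14 in C3 (adjusted p = 0.0328, 0.00308 and 0.0355). Hyou1, which has the same exchange activity, fell in C1 alone at this threshold, a difference between the genes that was not tested. In the remaining lists, the trimming mannosidase Man1b1 (-0.60 ± 0.15), the signal recognition particle receptor Srpr (-0.41 ± 0.12) and the cargo receptor Lman2 (-0.56 ± 0.15) fell in C2. The signal peptidase subunit Sec11c (0.37 ± 0.12) and the coat protein Sec24a (0.32 ± 0.09) rose in C2.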

How the data were processed

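Raw read counts per gene, not normalised by the authors, were taken from the deposited table; its 16 columns, 1 per library, were all used. Per the labels' protocols, poly(A) RNA was made into libraries with a directional kit. STAR 2.5.2b on the GRCm38 build, FastQC 0.11.5 and bcl2fastq 2.19.1.403 are named in the submitters' processing notes. No source used here gives the program that counted reads, its strand setting or the annotation release, so reads of near-identical or overlapping genes may be split; 14 of the 37 genes overlap a gene on the opposite strand and 7 another gene on their own.

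Positions, exon lengths and symbols came from GENCODE M21 (GRCm38), which held 53267 of 53372 identifiers, and promoter sequences from RefSeq on GRCm38.p6. Genes were filtered with filterByExpr (17810 of 32916 with a count), scaled by TMM and fitted with edgeR 4.0.16 (robust quasi-likelihood, R 4.3.3) in 1 model of 16 libraries, with the group as its term, 12 residual degrees of freedom and a common biological coefficient of variation of 0.189. The fit was tested on simulated counts with less spread than these data and no libraries that stood apart. That test does not cover the effect of such libraries. CPM values are TMM-scaled and log2 values use a prior of 0.5 CPM. Within groups, 24 pairs of libraries differed by more than counting noise (chi-square per degree of freedom 5.92 to 814). Other settings tried were RLE and upper-quartile scaling, other filters, DESeq2 1.42.0, limma-voom (limma 3.58.1), the 2 groups compared alone, a replicate block and leaving out libraries.

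The 37 genes, their roles and the other lists were chosen with earlier results of these data known. Values in every library are given for called genes of each role (up to 5 by size), for Hspa5 and Xbp1, and for the 2 most abundant where fewer than 2 were called; of each other list, up to 3 called genes are named. A marker gene is not reported here.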

Additional observations from a re-analysis of the deposited data

Results flagged for a closer look

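Of 148 groups of 4 libraries (37 genes in 4 groups), 7 held a library far from the other 3. That is about the share that chance gives, 1 in 20. The genes of a library are not independent of each other. In 5 of these C3-4 was low. C3-4 had 288 CPM of Calr where the other C3 libraries had 429 to 441, 21.0 CPM of Creld2 beside 27.2 to 28.3, 161.5 CPM of Pdia3 beside 225 to 238, 326 CPM of P4hb beside 599.6 to 607, and 98.6 CPM of Txndc5 beside 138 to 145. C3-4 is a library of high nuclear-retained RNA. In C1, the C1-1 value of Pdia4 was high at 139 CPM, beside 123 to 126 in the other 3, and the C1-2 value of Derl3 was high at 1.74 CPM, beside 1.04 to 1.06.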

How the results depend on the processing

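Members called in C1 against CTRL numbered 7 with all libraries, 22 with the 2 groups compared alone and 24 when C2-3, C2-4 and C3-4 were left out. These were 18.9%, 59.5% and 64.9% of members, against 2.32%, 15.2% and 14.6% of all genes. In C2 against CTRL the 3 calls became 6 with DESeq2, 5 with limma-voom, 5 with a replicate block and 14 without the 3 libraries. Of all genes 18.3% were called with all libraries, 23.5% with DESeq2, 17.2% with limma-voom and 19.2% with the block. Each of these is above the share of members in the same setting. Without the 3 libraries the share of members was the higher one, at 37.8% against 28% of all genes. In C3 against CTRL 0 became 3 (8.11%) without them, where the share of all genes called went from 1.4% to 6.09%. C2 against C1 gave 3, and 6 with the filter of at least 5 CPM in 4 libraries, 8 with DESeq2 and 26 without the 3 libraries. In that order, these were 8.11%, 17.1%, 21.6% and 70.3% of members, against 2.06%, 3.33%, 4.28% and 18.7% of all genes. C3 against C1 gave 4, and 1 with limma-voom and 12 without the 3 libraries. These were 10.8%, 2.7% and 32.4% of members, against 0.87%, 0.848% and 3.41% of all genes. C3 against C2 gave 1, and 0 with the 5 CPM filter, which removes Derl3, the only gene called, or the 2 groups alone, 3 with DESeq2, 2 with limma-voom and 17 without the 3 libraries. Of all genes 1.44% were called with all libraries, 2.11% with that filter and 0.0844% with the 2 groups alone. With DESeq2 it was 3.45% (8.11% of members), with limma-voom 1.48% (5.41%) and without the 3 libraries 14.3% (45.9%). Leaving out 1 library at a time gave 2 to 7 in C1, 2 to 7 in C2 and 0 to 0 in C3 against CTRL. Of all genes, 0.86% to 3.21%, 10.9% to 24.8% and 0.536% to 2.46% were called there. Between treated groups, such fits gave 3 to 5 in C2 against C1, 0 to 4 in C3 against C1 and 0 to 2 in C3 against C2. In that order, 0.973% to 2.52%, 0.448% to 1.14% and 0.378% to 2.41% of all genes were called. The low of 2 in C1 came without C1-4, the high of 7 in C2 without C2-2. The C2 calls of Derl3 and Herpud1 were kept without any single library (highest adjusted p 0.00797 and 0.00269), as were the C1 calls of Herpud1 and Creld2 (0.00677 and 0.0485). The causes were not tested.

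The median log2 fold change of the members in C2 was -0.11 with upper-quartile scaling, which moved the median of all genes to 0.10, and reversed to 0.13 without the 3 libraries, a setting added after seeing the data for the medians; in C3 it was -0.060 without them. In C1 it ran from -0.30 to -0.22 over all settings. Hsp90b1, Ssr1 and Pdia3 in C2, not called with all libraries, were called higher without the 3, at 0.27, 0.27 and 0.23. Same-numbered libraries correlated at -0.30 to 0.51, and 5 of 16 were most like their own number, so numbers were not taken to pair libraries. Depth limits Derl3 and Fkbp11, each with as few as 14 counts in a library (C1-3 and C2-3).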
